A study of Mus musculus with 60 samples.

Results

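The 8 genes described here responded to the oncoprotein MYC in mouse pancreatic islets with an effect that was high at 4, 8 and 32 h and low at 16 and 72 h: Dctd, Ak4, Yars2, Fig4, Tmem158, Ccdc137, Nxpe3 and Zmynd19. They are 8 of the 13176 genes tested, out of 18193 named genes on the array, and all 8 passed the filter on spread. They were picked from the MYC effect in these same arrays, so their MYC effects are given below as a description, without a test. Only the comparisons of exendin-4 with water, and of the MYC effect between these injections, were not used to pick them.

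The islets came from male pIns-MYCERTAM mice of a CBA-C57BL/6 background, aged 8 to 12 weeks in one label and 3 months in another. In these mice the insulin promoter drives MYC in beta cells, joined to an altered hormone-binding part of the oestrogen receptor, and 4-hydroxytamoxifen switches this fusion protein on. MycON mice received 1 mg of 4-hydroxytamoxifen per day into the abdominal cavity, and MycOFF mice received peanut oil. Each mouse also received exendin-4 (exenatide, which activates the receptor of the incretin hormone GLP-1) at 50 µg/kg under the skin, in 2 daily injections, or water, starting 2 days before. Every group carried the transgene, and no group without it received 4-hydroxytamoxifen, so an effect of the drug apart from MYC cannot be told apart from the MYC effect. The 4 treatments were MycON exendin-4 (12 arrays), MycON water (13), MycOFF exendin-4 (15) and MycOFF water (12), each at 5 times with 2 or 3 arrays. The labels call the arrays of a group biological replicates but tie none to a named animal, so the spread between arrays may be partly technical. Islets were cut by laser from 15 µm sections and are a mixture of cell types: fewer cells of a type and less RNA per cell cannot be told apart.

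MYC binds DNA together with its partner MAX, most strongly at the E-box CACGTG, and raises the transcription of many genes for nucleotide synthesis, ribosome assembly, mitochondrial protein synthesis and the cell cycle. In beta cells, sustained MYC activity is known to drive proliferation together with loss of differentiation and cell death. Dctd and Ak4 belong to nucleotide metabolism and Yars2 to protein synthesis in mitochondria, while the other genes act at endosomal membranes, at the cell surface, in the nucleolus or in roles that are less well described.

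The genes lie on 7 chromosomes of the mouse assembly GRCm38.p6, with Nxpe3 (chr16:55839953-55897104) and Yars2 (chr16:16302965-16309640) both on chromosome 16. Dctd spans chr8:48099092-48141667, Ak4 chr4:101416478-101467771, Fig4 chr10:41188172-41303241, Tmem158 chr9:123259057-123260789, Ccdc137 chr11:120458112-120464358 and Zmynd19 chr2:24949777-24960870. RefSeq promoter windows of 250 bases before a transcription start were found for 7 of the 8 genes, 12 windows in all, with several starts for Dctd and Ak4. The E-box CACGTG, whose reverse complement is the same sequence, stood in 1 of these 12 windows, an Ak4 start, and in 6.02% of 32851 windows of the same length genome-wide. The related motif CACGCG, searched on both strands, stood in 0 of the 12 windows and in 7.62% of all windows. The median GC content was 62.4% in the 12 windows and 52.4% over all windows. The Ak4 window is shown because it holds the motif, in capitals and starting 214 bases before the transcription start, and the first Dctd window as one without it. A match, or its lack, describes only the letters in these windows. Both are from RefSeq, GRCm38.p6, plus strand, 5′ to 3′.
Ak4, chr4:101419453-101419702: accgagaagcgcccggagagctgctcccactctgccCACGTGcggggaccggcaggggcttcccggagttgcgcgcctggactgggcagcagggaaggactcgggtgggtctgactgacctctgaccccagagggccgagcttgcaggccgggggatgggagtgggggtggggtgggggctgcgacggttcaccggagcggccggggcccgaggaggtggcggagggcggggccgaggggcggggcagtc
Dctd, chr8:48098842-48099091: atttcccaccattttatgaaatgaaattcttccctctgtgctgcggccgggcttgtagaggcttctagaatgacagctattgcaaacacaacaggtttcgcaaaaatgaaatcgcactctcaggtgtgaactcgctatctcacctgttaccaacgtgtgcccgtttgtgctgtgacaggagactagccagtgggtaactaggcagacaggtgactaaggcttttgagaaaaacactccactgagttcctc

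Values below are log2 deviations: each probe set is centred on its own median over all arrays of the series, so levels cannot be compared between genes. The plot of single arrays shows the common outline. MycON arrays stood above MycOFF arrays at 4, 8 and 32 h and overlapped with them in range at 16 and 72 h.

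**Figure D1:**
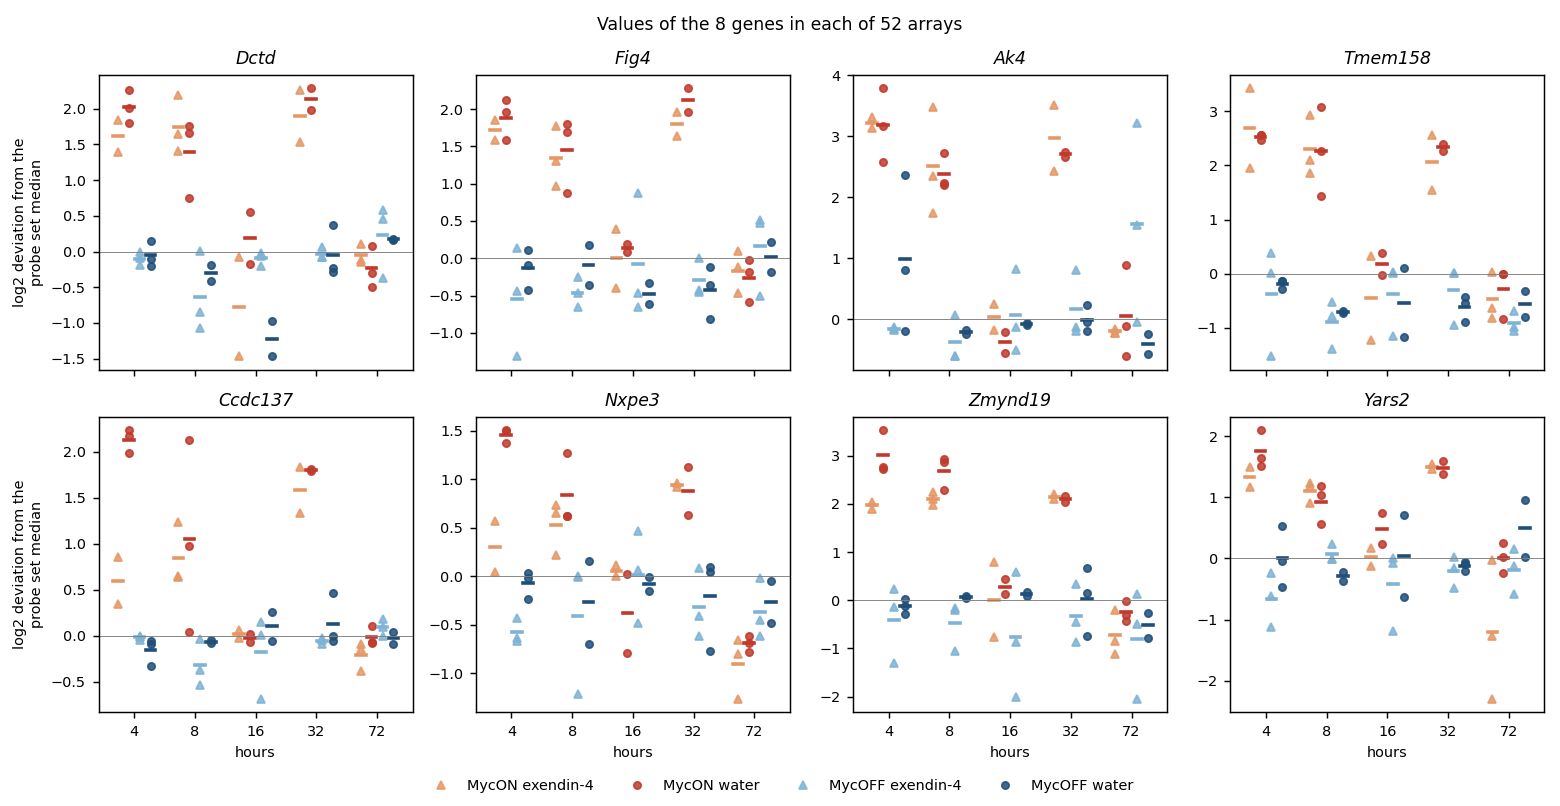
Log2 deviation from the probe set median (y axis) by hours (x axis) in each of 52 arrays, 1 panel per gene; triangles mark exendin-4, circles water, orange and red MycON, light and dark blue MycOFF, and short bars the group means. In all 8 panels the MycON points lie above all MycOFF points at 4, 8 and 32 h, and the ranges overlap at 16 and 72 h. For Nxpe3 at 72 h they barely do, with MycON at -1.27 to -0.61 and MycOFF at -0.62 to -0.03.

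For all 8 genes, the lowest MycON array lay above the highest MycOFF array at 4, 8 and 32 h, and the ranges overlapped for all 8 at 16 and 72 h. Among all genes tested, the share with every MycON array above every MycOFF array was 2.07% at 4 h, 3.29% at 8 h, 3.30% at 16 h, 5.27% at 32 h and 0.395% at 72 h. Since the genes were picked for this outline, the count is only a description of them.

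Dctd, the deaminase that turns dCMP into dUMP on the way to thymidylate, had at 4 h values of 1.39 and 1.85 in MycON exendin-4 and 2.26, 2.02 and 1.81 in MycON water islets, against -0.10, -0.01 and -0.19 in MycOFF exendin-4 and -0.20, -0.11 and 0.15 in MycOFF water islets. At 32 h it had 2.27 and 1.53 in MycON exendin-4 and 1.98 and 2.29 in MycON water islets, against -0.29 to 0.37 over the 6 MycOFF arrays (median -0.08). The lowest MycON array at these times was still well above the highest MycOFF array. At 16 h the groups mixed: -1.46 and -0.08 in MycON exendin-4, and -0.18 and 0.56 in MycON water islets, against -0.20, -0.02 and -0.06 in MycOFF exendin-4 and -1.47 and -0.98 in MycOFF water islets. At that time the low values were those of 1 MycON exendin-4 array and of MycOFF water. Averaged over both injections, the MYC effect of Dctd (MycON minus MycOFF) was 1.90 ± 0.23 at 4 h, 2.04 ± 0.23 at 8 h, 0.37 ± 0.26 at 16 h, 2.06 ± 0.25 at 32 h and -0.34 ± 0.23 at 72 h (log2, SE of the fit). The 3 high times did not differ beyond their SE.

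Ak4, an adenylate kinase of the mitochondrial matrix that moves phosphate between nucleotides, had the widest swing. At 8 h it had 2.34, 1.74 and 3.48 in MycON exendin-4 and 2.20, 2.23 and 2.72 in MycON water islets, against -0.60, -0.61 and 0.08 in MycOFF exendin-4 and -0.24 and -0.18 in MycOFF water islets. The lowest MycON array stood well above the highest MycOFF array. Single MycOFF arrays were high as well: 2.36 and 0.82 in MycOFF water at 4 h beside another at -0.19, and 3.22 and 1.54 in MycOFF exendin-4 at 72 h beside one at -0.05. The lowest MycON array at 4 h was at 2.58, so the separation at that time was narrow. The MycOFF exendin-4 array at 3.22 also had a mean of 5.09 over 2 lymphocyte markers and 3.42 over the stromal markers, while the one at 1.54 had -0.08 and -0.66. Without the array at 3.22, the contrast of the high minus the low times described below was 2.97 in place of 3.17. The 6 MycON arrays at 72 h lay between -0.61 and 0.89 (median -0.18), around the other MycOFF arrays. The MYC effect of Ak4 was 2.78 ± 0.41, 2.74 ± 0.41, -0.17 ± 0.45, 2.76 ± 0.43 and -0.65 ± 0.41 at 4, 8, 16, 32 and 72 h, about 6.7- to 6.87-fold at the high times.

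Yars2, the tyrosyl-tRNA synthetase of mitochondria, had the smallest step of the 8 genes between its lowest MYC effect at the high times and its highest at the low times. At 4 h it had 1.17 and 1.50 in MycON exendin-4 and 1.52, 1.65 and 2.10 in MycON water islets, against -1.12 to 0.54 over 6 MycOFF arrays (median -0.35). At 8 h the 6 MycON arrays held 0.56 to 1.23 (median 1.12), against -0.01, -0.01 and 0.23 in MycOFF exendin-4 and -0.22 and -0.36 in MycOFF water islets. At 72 h 2 of the 3 MycON exendin-4 arrays were low, with -2.30, -0.03 and -1.27, against -0.23, 0.25 and 0.02 in MycON water islets. Its MYC effect was 1.87 ± 0.28, 1.13 ± 0.28, 0.45 ± 0.31, 1.66 ± 0.30 and -0.75 ± 0.28 at the 5 times in order.

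Fig4, a phosphatase that works in a complex with the kinase Pikfyve and Vac14 on an endosomal phosphoinositide, had at 4 h 1.86 and 1.59 in MycON exendin-4 and 1.96, 1.58 and 2.12 in MycON water islets, against -1.32 to 0.14 over 6 MycOFF arrays (median -0.26). At 32 h it had 1.97 and 1.63 in MycON exendin-4 and 1.96 and 2.28 in MycON water islets, against -0.81 to 0.00 over 6 MycOFF arrays. At 72 h the 6 MycON arrays lay between -0.58 and 0.10, inside the MycOFF range of -0.51 to 0.51 apart from 1 array. The MYC effect of Fig4 was 2.14 ± 0.26, 1.68 ± 0.26, 0.34 ± 0.29, 2.32 ± 0.27 and -0.30 ± 0.26 at the 5 times.

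Tmem158, a membrane protein first described in human fibroblasts made senescent by RAS, had at 4 h 3.43 and 1.94 in MycON exendin-4 and 2.57, 2.56 and 2.47 in MycON water islets, against -1.53 to 0.38 over 6 MycOFF arrays (median -0.14). At 8 h it had 1.43 to 3.09 over 6 MycON arrays (median 2.19), against -0.53, -1.38 and -0.78 in MycOFF exendin-4 and -0.73 and -0.69 in MycOFF water islets. No other gene of the 8 had a larger MYC effect at 4 or 8 h: it was 2.89 ± 0.35 and 3.08 ± 0.35 there, 2.66 ± 0.37 at 32 h, and 0.32 ± 0.39 and 0.36 ± 0.35 at 16 and 72 h.

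Ccdc137, described in human cells as a nucleolar protein that binds a retinoic acid receptor, was the gene in which the MYC effect at 4 h differed most between the injections. It had 0.34 and 0.86 in MycON exendin-4 but 2.17, 1.99 and 2.23 in MycON water islets, against 0.00, -0.01 and -0.04 in MycOFF exendin-4 and -0.06, -0.08 and -0.33 in MycOFF water islets. At 8 h its MycON values were spread, with 1.24, 0.65 and 0.64 in exendin-4 and 2.13, 0.97 and 0.05 in water islets, against -0.53 to -0.04 over 5 MycOFF arrays. At 16 h the 4 MycON arrays were close to 0, between -0.06 and 0.07, inside the MycOFF range of -0.68 to 0.26. The MYC effect of Ccdc137 was 1.45 ± 0.21, 1.13 ± 0.21, 0.04 ± 0.23, 1.65 ± 0.22 and -0.15 ± 0.21 at the 5 times.

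Nxpe3, a member of the family that shares a domain with the neurexophilins, had the smallest MYC effects of the 8 at 4, 8 and 32 h. At 4 h it had 0.04 and 0.57 in MycON exendin-4 and 1.50, 1.37 and 1.49 in MycON water islets, against -0.43, -0.63 and -0.67 in MycOFF exendin-4 and 0.03, -0.02 and -0.23 in MycOFF water islets. The lowest MycON and the highest MycOFF array were thus next to each other. At 72 h the 6 MycON arrays held -1.27 to -0.61 (median -0.74), below 4 of the 5 MycOFF arrays, which were at -0.46, -0.62 and -0.03 in MycOFF exendin-4 and at -0.05 and -0.49 in MycOFF water islets. The MYC effect of Nxpe3 was 1.20 ± 0.22, 1.02 ± 0.22, -0.13 ± 0.25, 1.17 ± 0.24 and -0.48 ± 0.22 at the 5 times.

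Zmynd19, a zinc finger protein first described as a binding partner of the melanin-concentrating hormone receptor, had at 4 h 2.04 and 1.90 in MycON exendin-4 and 2.72, 3.52 and 2.77 in MycON water islets, against -1.31 to 0.23 over 6 MycOFF arrays (median -0.13). At 32 h the 4 MycON arrays were almost equal, with 2.20 and 2.10 in exendin-4 and 2.03 and 2.17 in water islets, against -0.87 to 0.66 over 6 MycOFF arrays. At 16 h its values were widely spread, between -0.76 and 0.79 in MycON and between -2.00 and 0.58 in MycOFF islets. The MYC effect of Zmynd19 was 2.75 ± 0.37, 2.60 ± 0.37, 0.46 ± 0.41, 2.28 ± 0.39 and 0.18 ± 0.37 at the 5 times.

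**Figure D2:**
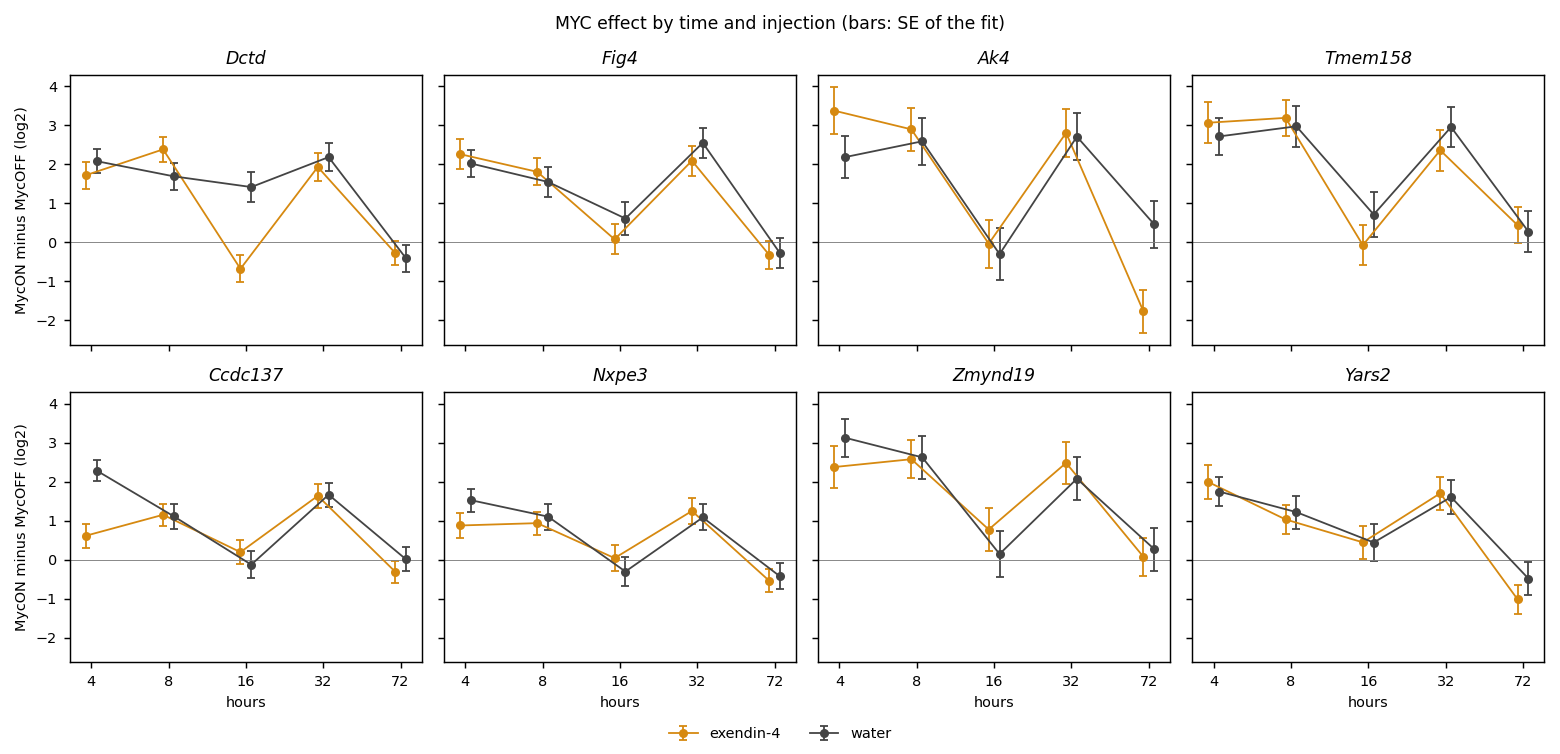
MYC effect (MycON minus MycOFF, log2, y axis) by hours (x axis) in exendin-4 (orange) and water (grey) mice, 1 panel per gene; bars are the SE of the fit. In both injections the effect is above 0.5 at 4, 8 and 32 h in every panel, while at 16 h Dctd stands apart, with -0.68 in exendin-4 and 1.42 in water mice.

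The contrast of the mean MYC effect at 4, 8 and 32 h minus that at 16 and 72 h put the swing in 1 number per gene. It was 3.17 ± 0.39 for Ak4 (a 9.01-fold difference), 2.54 ± 0.33 for Tmem158 and 2.23 ± 0.35 for Zmynd19 (log2, SE). Fig4 had 2.03 ± 0.25, Dctd 1.98 ± 0.22, Yars2 1.70 ± 0.27, Ccdc137 1.47 ± 0.20 and Nxpe3 1.44 ± 0.21. The ranges of 1 SE around these values overlapped between neighbours in this order, but not between Ak4 and Nxpe3 at its ends. Over all genes tested the median was -0.02, and the 10th and 90th percentiles were -0.81 and 0.51. The swing lay in the MycON islets: their own mean at 4, 8 and 32 h minus that at 16 and 72 h was 1.31 to 2.95 over the 8 genes (median 1.91), against -0.23 to 0.28 in MycOFF islets (median -0.10). By another measure, the lowest MYC effect at the high times minus the highest at the low times, Ak4 had 2.91 and Yars2 0.68. The rule sets no number as its limit: 62 genes, among them all of the 8 but Yars2, reached 1 on this measure, Ruvbl1 with 0.69 and Cnnm1 with 0.68 lie on either side of Yars2, and the 8 genes are thus not all the genes of this outline.

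Other probe sets did not always show the same outline. Of 18 probe sets for the 8 genes, 12 passed the filter on spread, and Dctd, Fig4 and Ccdc137 had 1 each. The second probe set of Yars2 gave a MYC effect of 1.03, 1.12, 0.80, 1.25 and -0.22 at the 5 times, so it was also high at 16 h. For Zmynd19, one gave 1.75, 1.41, 0.03, 1.41 and 0.05, but another gave 1.57, 1.70, 2.08, 2.55 and 0.19, with a 16 h effect as high as the others. The other 4 probe sets of Ak4, 2 of Tmem158 and 1 of Nxpe3 hardly moved, with a contrast of high minus low times between -0.00 and 0.21. Of these, only 1 of Ak4 (0.13) passed the filter on spread. The rest were left out of the mean over probe sets given below. By the suffix of their names, the probe sets used for Ak4 (_s_at), Yars2 (_x_at) and Ccdc137 (_a_at) are of types that can bind several transcripts. For Zmynd19, Yars2, Ak4, Tmem158 and Nxpe3 the outline therefore holds for the probe set with the widest spread, not for each probe set.

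Whether exendin-4 moved the 8 genes was tested in the limma fit of all 13176 genes, over both MYC states and the 5 times. The threshold was a p of 0.05 after Benjamini-Hochberg adjustment, which none of the 8 genes and 1.32% of all genes passed (174: 38 higher and 136 lower; 1629, or 12.4%, at an unadjusted p under 0.05). The difference, exendin-4 minus water, was below 0 in 7 of the 8, with a median of -0.15 over the 8 genes and -0.00 over all genes. The largest was that of Zmynd19, -0.46 (95% interval -0.81 to -0.12, limma adjusted p = 0.202), followed by Yars2 with -0.34 (-0.61 to -0.08, adjusted p = 0.233) and Ccdc137 with -0.26 (-0.45 to -0.06, adjusted p = 0.224). Their unadjusted p were 0.00987, 0.0135 and 0.0124 in limma. Ak4 was the only one above 0, with 0.16 (-0.23 to 0.54, adjusted p = 0.732), and Dctd was at -0.02 (-0.24 to 0.20, adjusted p = 0.945). At single times, the median difference over the 8 genes was -0.55, -0.15, -0.02, -0.06 and -0.10 at 4, 8, 16, 32 and 72 h. Over all genes the median was -0.08, -0.005, 0.002, -0.02 and 0.04 in the same order. The 8 values at 4 h ran from -0.83 for Nxpe3 to -0.02 for Tmem158. Over all genes, the 10th and 90th percentiles at 4 h were -0.72 and 0.34. The 8 values come from the same arrays and are not replicates of the treatment. limma's F test over the 5 times called 0.288% of all genes (38; 1102, or 8.36%, at an unadjusted p under 0.05) and none of the 8, with adjusted p between 0.348 for Yars2 and 1.

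**Figure D3:**
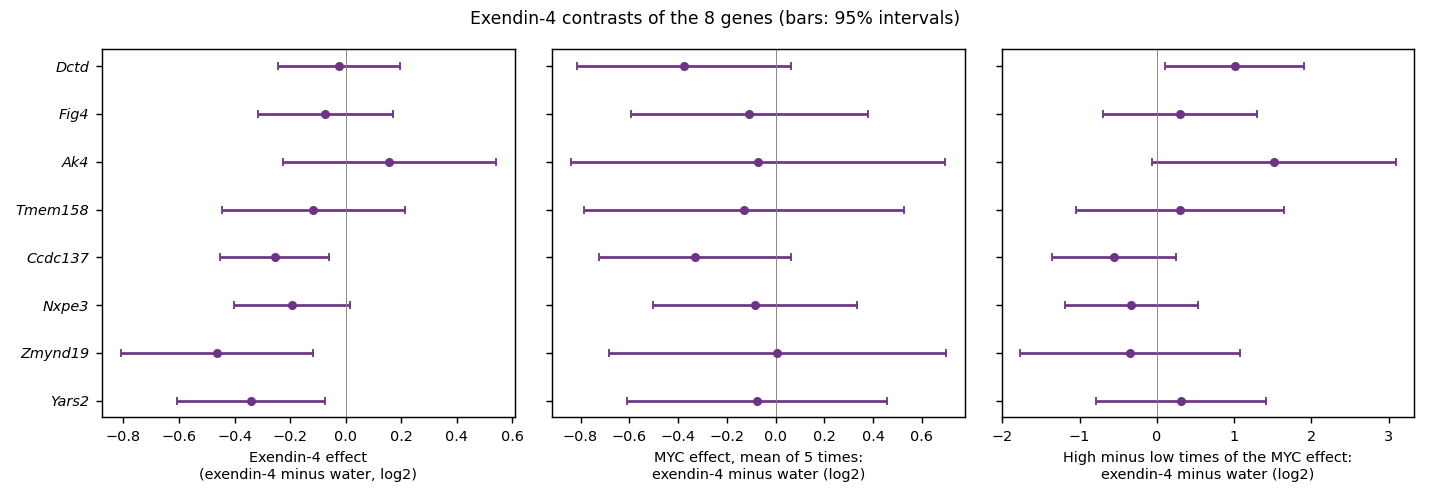
Log2 differences with 95% intervals (x axes) for each of the 8 genes (y axis): exendin-4 minus water over both MYC states (left), the MYC effect over 5 times in exendin-4 minus water mice (middle), and the same for the contrast of high minus low times (right). The intervals of Ccdc137, Zmynd19 and Yars2 lie below 0 on the left and that of Dctd above 0 on the right, but no gene passed the adjusted test.

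Whether the MYC effect differed between injections was tested in the same fit. Averaged over the 5 times, limma called 0 of 13176 genes (0%; 250, or 1.90%, at an unadjusted p under 0.05), and the 8 genes had differences (exendin-4 minus water) of -0.38 for Dctd to 0.01 for Zmynd19. For the contrast of high minus low times, limma again called 0 genes (0%; 348, or 2.64%, at an unadjusted p under 0.05). That contrast was 2.49 in exendin-4 and 1.48 in water mice for Dctd, a difference of 1.01 (95% interval 0.10 to 1.91, limma unadjusted p = 0.03, adjusted p = 1). For Ak4 it was 3.93 in exendin-4 and 2.42 in water mice, a difference of 1.51 (-0.07 to 3.09). For Ccdc137 it was 1.19 in exendin-4 and 1.75 in water mice (difference -0.56, -1.36 to 0.25). Fig4, Tmem158 and Yars2 had differences of 0.30 to 0.32, and Nxpe3 and Zmynd19 of -0.33 and -0.35, all with intervals that reached at least 0.5 to either side of 0. limma's F test of the interaction over the 5 times called 0 genes (0%; 181, or 1.37%, at an unadjusted p under 0.05), with the lowest p among the 8 in Dctd (0.00654) and Ccdc137 (0.0131), each with an adjusted p of 1.

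These differences were largest at single times, chosen after their values were seen. For Dctd the MYC effect at 16 h was -0.68 in exendin-4 and 1.42 in water mice, a difference of -2.10 ± 0.52 (limma adjusted p = 0.695 over all genes), which rested on 2 arrays in 3 of the 4 groups. Without either of the 2 MycON exendin-4 arrays the value moved: it was -1.41 without replicate 1 (limma adjusted p = 1) and -2.79 without replicate 3 (limma adjusted p = 0.00812), and without replicate 1 the MYC effect in exendin-4 mice was 0.012. For Ccdc137 the MYC effect at 4 h differed by -1.67 ± 0.42 (limma adjusted p = 1), where its MycON exendin-4 arrays lay below its MycON water arrays. For Ak4 it differed by -2.23 ± 0.82 at 72 h (limma adjusted p = 1), where the 2 high MycOFF exendin-4 arrays lie. Without the array at 3.22 (replicate 2), the difference was -1.40 (limma adjusted p = 1). At each of the 5 times limma called 0 genes for this interaction (133 to 471 at an unadjusted p under 0.05).

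Apart from group means, the 8 genes moved together only loosely. After each array was set against its group mean, the Pearson correlation over the 52 arrays was -0.18 to 0.50 over the 28 pairs (median 0.09), with 19 pairs above 0. The highest were Ccdc137 with Nxpe3 (0.50) and Dctd with Fig4 (0.45). The correlation of these genes with every other tested gene had a median of 0.01 and 10th and 90th percentiles of -0.30 and 0.32, and all pairs share arrays and their scaling.

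The genes whose 10 MYC differences (5 times by 2 injections) were most like the mean of the 8 were Dnajc11 (Pearson correlation 0.975 over 10 differences), Neu2 (0.974), Mtap (0.968), Wdr73 (0.968), Cep68 (0.967) and Znrd2 (0.966), while the 8 genes themselves had 0.885 for Ccdc137 to 0.974 for Fig4. Dnajc11 encodes a mitochondrial membrane protein, Neu2 a sialidase, Mtap the phosphorylase that salvages methylthioadenosine, and Cep68 a centrosome protein. Mtap had MYC effects of 2.23, 2.48, 0.39, 2.07 and -0.29 at the 5 times, close to those of Dctd, whereas Znrd2 kept 1.09 at 16 h. These correlations share all arrays with the 8 genes and are given as a description. Each of the 8 genes is part of that mean and was picked for its outline, so its own correlation is high by construction.

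Genes of the same pathways passed a test for this outline about as often as all genes did. Of 118 genes in 7 lists, 94 were tested. For the contrast of high minus low times, 2 were higher and 1 lower (3.19%) at a limma adjusted p under 0.05, against 4.22% of all genes (262 higher and 294 lower). For the MYC effect averaged over the 5 times, 14 were higher and 6 lower (21.3%), against 15.4% of all genes (9.93% higher and 5.48% lower).

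The pyrimidine nucleotide list around Dctd held most of these calls. Of its 27 tested genes, 12 rose and 2 fell with MYC over the 5 times (51.9%), with a median of 0.46, against -0.03 over all genes. As the list was chosen with earlier results of these data known, this share is a description and no independent test. Rrm1, the large subunit of ribonucleotide reductase, rose by 1.87 ± 0.24 (limma adjusted p = 5.23e-07), but with another course than Dctd: -0.21, 2.76, 3.40, 1.80 and 1.61 at the 5 times, so that 16 h was its highest. Dctpp1, a pyrophosphatase of dCTP, rose by 1.09 ± 0.16 (limma adjusted p = 1.06e-05) and was also highest at 16 h, with 1.60. Ctps, the CTP synthase, rose by 0.91 ± 0.13 (limma adjusted p = 7.28e-06) and was the list's one gene past the test for higher high times, with 1.16 ± 0.27 (limma adjusted p = 0.0107). Its MYC effect was 1.34, 1.73, 0.60, 1.03 and -0.17 at the 5 times. Upp1, which splits uridine, had lower high times (-1.19 ± 0.34, limma adjusted p = 0.0377), a call that was lost without any 1 of 14 arrays (limma adjusted p up to 0.0807).

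**Figure D4:**
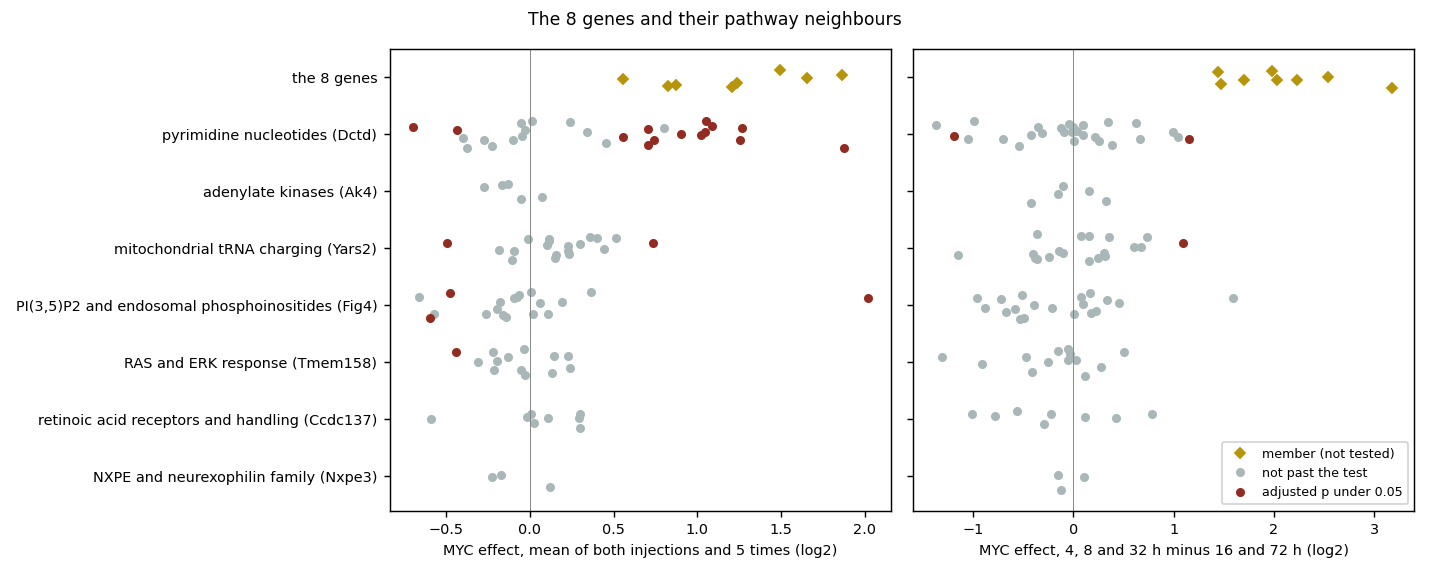
Each point is a gene: the MYC effect averaged over both injections and 5 times (left) and the contrast of high minus low times (right), in log2 (x axes), for the 8 genes and the 94 tested genes of 7 lists (y axis); red marks a limma adjusted p under 0.05, and the 8 genes have no test. On the right, 3 of the 94 points are red (Ctps, Tars2 and Upp1).

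Among 19 tested genes of mitochondrial tRNA charging, the list around Yars2, 1 rose and 1 fell with MYC (10.5%). Tars2, the threonyl-tRNA synthetase of mitochondria, rose by 0.74 ± 0.15 (limma adjusted p = 0.00068) and had higher high times by 1.10 ± 0.31 (limma adjusted p = 0.0366), with 1.26, 1.70, 0.15, 0.56 and 0.01 at the 5 times, so that 32 h was much lower than in Yars2. The call for higher high times was lost without any 1 of 13 arrays (limma adjusted p up to 0.0841). Ears2, which charges the glutamate tRNA, fell by 0.49 ± 0.07 on the log2 scale (limma adjusted p = 7.28e-06). Among 19 tested genes of endosomal phosphoinositides around Fig4, 1 rose and 2 fell (15.8%). Mtm1, the phosphoinositide phosphatase myotubularin, rose by 2.02 ± 0.30 (limma adjusted p = 9.79e-06), with 2.10, 3.16, 1.77, 2.71 and 0.37 at the 5 times. Its contrast of high minus low times was 1.59 ± 0.62 and did not pass (limma adjusted p = 0.153). Wipi1, which binds phosphoinositides in autophagy, fell by 0.59 ± 0.14 (limma adjusted p = 0.0027), and Mtmr3, a myotubularin-related phosphatase, fell by 0.47 ± 0.12 (limma adjusted p = 0.00397). Of 13 tested genes of the RAS and ERK response around Tmem158, only Dusp5, a phosphatase of ERK, passed, and it fell by 0.44 ± 0.10 (limma adjusted p = 0.00184). The 5 adenylate kinases around Ak4, the 8 genes of retinoic acid receptors and handling around Ccdc137, and the 3 relatives of Nxpe3 gave 0 calls in either contrast. With 15.4% of all genes called for the MYC effect and 4.22% for high minus low times, lists this small cannot show a lack of response.

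Marker lists of other cell types were read in the same arrays. The 52 arrays kept had beta cell marker means (8 of 10 genes tested) between -1.19 and 1.39, and a contrast of high minus low times of -0.46 ± 0.43, with 3 of 8 above 0 and Pdx1 past the limma test. Their MYC effect was -0.63, -1.21, 0.51, 0.03 and -0.79 at the 5 times. The mean of the macrophage markers (10 of 10 tested) had a contrast of opposite sign to that of the 8 genes, -1.35 ± 0.42. Of these markers, 1 of 10 was above 0, and Cd68 and C1qb passed the limma test. The MYC effect of the macrophage mean was -0.23, 0.20, 1.35, 1.12 and 2.08 at the 5 times, so it was also above 0 at 32 h. Per array it ran from -1.13 to 1.44 at the high times and -0.72 to 3.07 at the low times in MycON islets, against -1.75 to 0.67 and -1.22 to 0.31 in MycOFF islets. The contrast was 0.23 ± 0.64 for acinar, -0.71 ± 0.43 for other endocrine, -0.33 ± 0.15 for duct, 0.82 ± 0.45 for lymphocyte (2 tested), -0.16 ± 0.50 for stromal, -0.28 ± 0.24 for endothelial and 0.42 ± 0.40 for skin and muscle markers. For exendin-4 minus water, the means of the 9 lists lay between -0.17 and 0.30. The part of these cell types in the outline of the 8 genes was not tested.

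The submitters had left out 8 of the 60 arrays, which stand apart. Of these, 4 had lymphocyte marker means of at least 9.27 and 3 had skin and muscle marker means of 9.69 to 10.4, with beta cell marker means down to -7.14; the last had -0.90 for beta cell and 2.14 for skin and muscle markers. The spread of values within an array, as a standard deviation, was 0.968 to 1.39 in the arrays left out and 0.283 to 0.946 in those kept. With all 60 arrays, the contrast of high minus low times was between 1.31 for Ccdc137 and 2.44 for Ak4.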

How the data were processed

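Expression was measured on Affymetrix arrays, per the labels' protocols. The authors deposited 1 log2 value per array for each of 45101 probe sets, centred so that its median over the 60 arrays is 0 (100% of probe sets, tolerance 1e-06). Base 2 was inferred from their range (-12.3 to 12.8). MAS5 and GCRMA stand in the submitters' processing notes, their role unstated. Levels are lost, so low signals could not be filtered. Probe sets under the 40th percentile of the interquartile range (0.101) were left out, and the widest per gene was used.

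The 52 arrays kept entered 1 limma 3.58.1 model (R 4.3.3) with 20 group means and eBayes (32 residual and 2.75 prior degrees of freedom), with Benjamini-Hochberg adjustment within a contrast. It was tested on simulated data. Probe sets held 1 symbol (34945), several (932) or none (9160). Arrays limit the precision by their number. Every adjusted p of a gene is from limma.

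The members, lists and markers were chosen with earlier results of these data known. The named genes are the 8 members, up to 3 genes past the threshold with the smallest adjusted p in each list and contrast, and the 6 most similar genes. No 2 arrays correlated above 0.965. Arrays of other groups with the same replicate number had a median residual correlation of 0.00 (-0.58 to 0.53). A median over all such pairs cannot exclude that the numbers pair arrays in part of the groups. Other settings are given below. Figures were drawn with matplotlib 3.10.9.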

Additional observations from a re-analysis of the deposited data

How the results depend on the processing

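All 8 genes, picked for high minus low times, kept that contrast above 0 in every setting, which is no test. It was lowest for Ak4 (1.65), Zmynd19 (1.50) and Yars2 (1.27) averaged over probe sets past the filter. Leaving out 1 array gave 1.34 to 1.54 for Nxpe3 and 2.97 to 3.38 for Ak4. An array left alone in its group was assumed to vary like the others. Of 2360 repeats of the exendin-4 tests on the 8 genes, single times apart, 1 passed: Ccdc137 without MycON water 8 h replicate 3, with an exendin-4 effect of -0.31 (limma adjusted p = 0.0398). Of interactions at single times, only that of Dctd at 16 h passed, without MycON exendin-4 16 h replicate 3 (0.00812).

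With all 60 arrays, the exendin-4 effect had 16 calls (174 with 52 arrays), its F test 2 (38), and the pathway genes 12 for the MYC effect (20) and 0 for high minus low times (3). The exendin-4 F test had 58 calls with quantile normalization and 123 with array weights, which also gave 1 call in the interaction F test. With no filter on spread, the pathway genes had 1 call for high minus low times. The sign turned with all 60 arrays for the MYC effect of Nxpe3 at 8 h in water (-0.033, 1.11 with 52) and its interaction at 4 h (0.20, -0.65 with 52).

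Leaving out 1 array gave 97 to 246 calls for the exendin-4 effect, 25 to 68 for its F test, 0 to 11 for the interaction F test, 0 to 2 for the interaction averaged over 5 times, 0 to 7 for the difference between injections in high minus low times, 18 to 24 for the MYC effect of pathway genes and 1 to 4 for their high minus low times. The exendin-4 effect had 109 calls without MycON water 16 h replicate 1 and 97 without MycOFF water 16 h replicate 2. Its F test had 68 without MycON water 16 h replicate 2, 59 without MycON water 72 h replicate 3, 60 without MycOFF exendin-4 72 h replicate 3, 58 without MycOFF water 16 h replicate 3 and 25 without MycOFF water 4 h replicate 2. Without MycON exendin-4 16 h replicate 3, the interaction F test had 11 and the difference between injections 7 calls; without MycOFF water 72 h replicate 1 they had 7 and 4. The interaction F test had 1 to 3 calls without MycON exendin-4 16 h replicate 1, 32 h replicate 2, 72 h replicate 1 or 72 h replicate 3, MycON water 16 h replicate 1 or 2, MycOFF exendin-4 8 h replicate 3, MycOFF water 8 h replicate 1 or MycOFF water 16 h replicate 3. The difference between injections had 2 calls without MycOFF water 16 h replicate 3 and 1 without MycON exendin-4 16 h replicate 1. The averaged interaction had 2 without MycOFF water 16 h replicate 3 or 72 h replicate 1, and 1 without MycON exendin-4 16 h replicate 3. Pathway genes had 1 call for high minus low times without MycON exendin-4 32 h replicate 2, MycON exendin-4 72 h replicate 3 or MycOFF water 72 h replicate 3. In exendin-4 mice at 16 h the MYC effect was -1.37 to 0.012 for Dctd and -0.00063 to 1.55 for Zmynd19, each resting on 2 MycON arrays. No cause was tested.

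The replicate block gave 206 calls for the exendin-4 effect, 40 for its F test, 0 for interactions, 22 and 3 for pathway genes, and changed no call of the 8.

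Calls of Tars2 (0.161), Upp1 (0.467) and Ctps (0.0508) for high minus low times, and of Tars2 (0.0563) and Wipi1 (0.0711) for the MYC effect, were lost with all 60 arrays (limma adjusted p). Tars2 (0.0517) and Upp1 (0.054) also missed with no filter on spread, Tars2 with the mean over probe sets (0.147), and Upp1 with array weights (0.128) and quantile normalization (0.0563). With 2 or 3 arrays per group, a missed threshold does not show equality.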
